A study of Homo sapiens with 6 samples.

Results

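The 10 genes described here encode the enzymes that make polyamines, the antizymes and antizyme inhibitor that set how much of the first enzyme survives, the acetyltransferase that marks polyamines for removal, and eIF5A with the enzyme that begins its modification by spermidine. They were chosen by name, with earlier results of these data known (ODC1, AMD1, SRM, SMS, OAZ1, OAZ2, AZIN1, SAT1, EIF5A and DHPS). All 10 were found among the 29176 genes of the deposited table and had enough counts to be tested. The cells were HaCaT, an established line of immortalized human keratinocytes. M5 had been given to the cells of all 6 samples; it is the stimulus that the series title gives for a culture model of psoriasis and that the literature describes as a cytokine mixture. Small interfering RNA had been introduced into each: a control one in the 3 samples of si-NC+M5, and one against eIF4E, the factor that binds the mRNA cap, in the 3 of si-eIF4E+M5. RNA was taken after 48 hours. The line, the stimulus and the transfection were thus shared by both groups, and no unstimulated or untransfected cells enter any comparison.

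Polyamines are small, positively charged metabolites that bind RNA and are needed for growth. Ornithine decarboxylase makes putrescine, and spermidine synthase and then spermine synthase add aminopropyl groups that come from decarboxylated S-adenosylmethionine. Spermidine is also the donor of the aminobutyl group that turns a single lysine of eIF5A into hypusine, a residue that eIF5A needs to help ribosomes through difficult peptide bonds. In epidermis, ornithine decarboxylase is known as an enzyme of proliferating keratinocytes, and its mRNA is among those described as sensitive to eIF4E at the level of translation. RNA sequencing reads transcript amount, so enzyme activity, polyamine levels, frameshifting and hypusination were not measured here.

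Library totals ran from 71044961 to 74246501 counts, and every member had at least 1397 counts in each. The labels do not say that replicates came from separate cultures, so the spread behind the p-values may be only technical. EIF4E was lower in all 3 libraries of the knockdown group, at 41.9% of the control level (95% confidence interval 36.4 to 48.2%, adjusted p = 7.2e-05 by the quasi-likelihood test of edgeR, adjusted over all tested genes after Benjamini and Hochberg). The 5 keratinocyte markers KRT5, KRT14, KRT6A, TP63 and DSG3 summed to between 4784 and 5203 CPM (counts scaled to a common library total by the TMM method) in control libraries and between 5431 and 6206 CPM in knockdown libraries, and 2 of them, KRT5 and DSG3, rose. Fibroblast markers summed to between 3.01 and 3.92 CPM against 6.46 to 9.19 CPM. COL1A1 and COL3A1 rose, and COL1A2 and LUM were under the count filter. Of the leukocyte markers CD68 rose, within sums of 11.2 to 13.4 against 14.97 to 19.2 CPM, and CD3E was under the filter. Melanocyte markers summed to at most 2.33 CPM in any library, with none called. The part of these markers in the results below was not tested, and in RNA from whole cultures fewer cells of one kind and less RNA per cell cannot be told apart.

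In the knockdown cells the transcripts of the first steps of polyamine synthesis and of eIF5A fell, while those of the last synthase, the main antizyme, the antizyme inhibitor, the acetyltransferase and the hypusine-forming enzyme did not pass the test. SRM, encoding spermidine synthase, fell to 42.6% of the control level, ODC1 to 50.01%, EIF5A to 71.55% and AMD1 to 79.9%. OAZ2, encoding the second antizyme, rose to 117.6%. In all, 4 of the 10 members were called lower, where 8.40% of the 18022 tested genes were, and 1 was called higher, where 7.44% were, at an adjusted p under 0.05 in edgeR. Together 5 of 10 members were called, against 15.8% of tested genes. Calls were more frequent among well expressed genes. In a fit of the 6772 genes with a mean FPKM (fragments scaled for length and library total) of at least 5, 1136 were called lower and 1056 higher. There 4 members were called lower and 0 higher, and OAZ2 was not tested. The CPM values of the groups did not overlap for 6 members, against 33.8% of all tested genes. Because the members were chosen with earlier results of these data known, these shares describe the list and do not test it. The median log2 fold change of the 10 members was 0.02 and that of all tested genes -0.01. The 4 members that fell lay between -1.23 and -0.32, and the other 6 between 0.01 and 0.23.

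**Figure D1:**
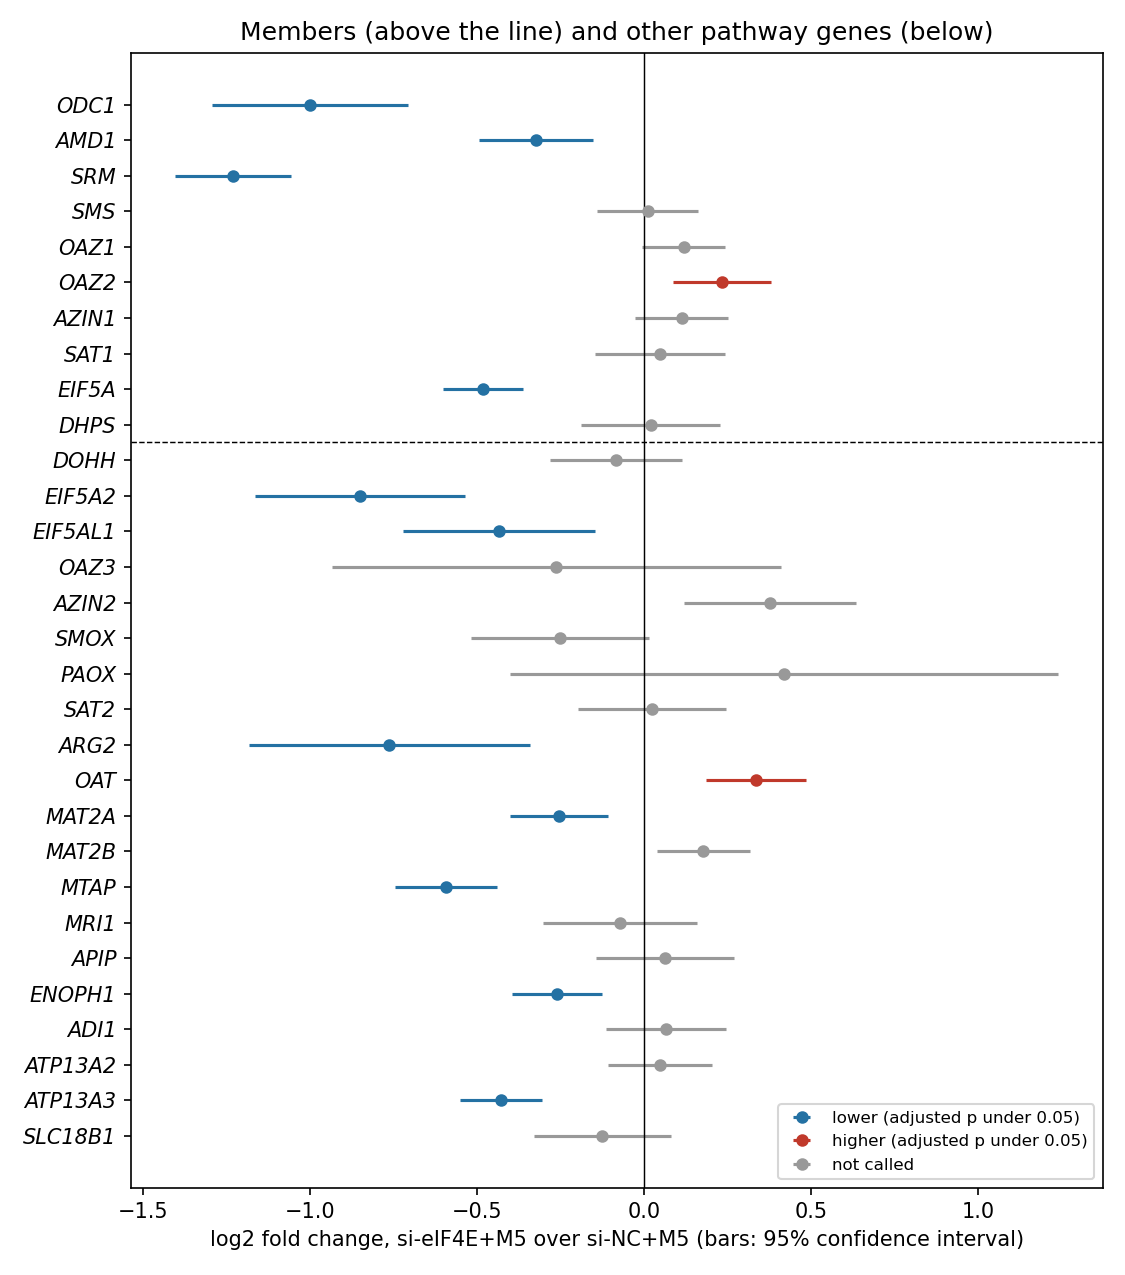
Log2 fold changes of the knockdown over the control group, with 95% confidence intervals, for the 10 members, above the dashed line, and for the 20 tested genes of the wider pathway, below it; blue and red mark genes that passed an adjusted p of 0.05. SRM and ODC1 lie farthest to the left among the members, at -1.23 and -0.9996, and the 5 members that were not called have intervals that include 0.

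ODC1 encodes ornithine decarboxylase, the first and rate-limiting enzyme of the pathway (ENSG00000115758, minus strand, chr2:10439968-10448327 in GRCh38). Its level was 69.1, 76.0 and 60.3 CPM in si-NC+M5 replicates 1, 2 and 3 and 30.7, 42.0 and 29.9 CPM in the corresponding si-eIF4E+M5 replicates. The highest knockdown library remained below the lowest control library, and replicate 2 was the highest of its group on both sides. Averaged, controls held 68.4 ± 7.88 CPM and knockdown libraries 34.2 ± 6.77 CPM (SD, n = 3), a log2 fold change of -0.9996 ± 0.13 (SE, adjusted p = 0.0011 in edgeR). Of the 10 members ODC1 varied most between replicates, with a coefficient of variation of 11.5% among controls and 19.8% among knockdown libraries.

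SRM encodes spermidine synthase, which attaches the first aminopropyl group to putrescine (ENSG00000116649, minus strand, chr1:11054584-11060018). Control libraries held 50.0, 50.3 and 45.1 CPM and knockdown libraries 19.8, 19.98 and 22.2 CPM. Both groups were tight and lay far apart. The means were 48.5 ± 2.94 and 20.7 ± 1.35 CPM, a log2 fold change of -1.23 ± 0.08 (adjusted p = 3.9e-05 in edgeR), or 42.6% of control with a 95% confidence interval from 37.8 to 48.1%. Of all tested genes, 1.21% had a lower fold change than SRM and 1.95% a lower one than ODC1.

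AMD1 encodes S-adenosylmethionine decarboxylase, which makes the aminopropyl donor used by both synthases (ENSG00000123505, plus strand, chr6:110874770-110898879). Its level was 73.4, 68.4 and 78.98 CPM in control libraries and 56.4, 64.1 and 55.9 CPM in knockdown libraries. The groups did not overlap, but the gap between 64.1 and 68.4 CPM was smaller than the range within either group. The log2 fold change was -0.32 ± 0.08 (adjusted p = 0.018 in edgeR). This call was lost in 7 of 15 other settings, among them limma on log2(FPKM + 1), with an adjusted p of 0.062, and without si-NC+M5 replicate 3 (adjusted p = 0.070 in edgeR), si-eIF4E+M5 replicate 1 (0.083) or si-eIF4E+M5 replicate 3 (0.063).

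SMS, the X-linked gene of spermine synthase, which adds the second aminopropyl group (ENSG00000102172, plus strand, chrX:21940709-21994837), did not follow SRM. It held 54.2, 54.1 and 55.1 CPM in control libraries and 50.5, 55.2 and 59.0 CPM in knockdown libraries. The knockdown values spread to both sides of the control values. Its log2 fold change was 0.01 ± 0.07 (adjusted p = 0.94 in edgeR), with a 95% interval from -0.14 to 0.16 that lies wholly above the interval of SRM, from -1.40 to -1.06.

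**Figure D2:**
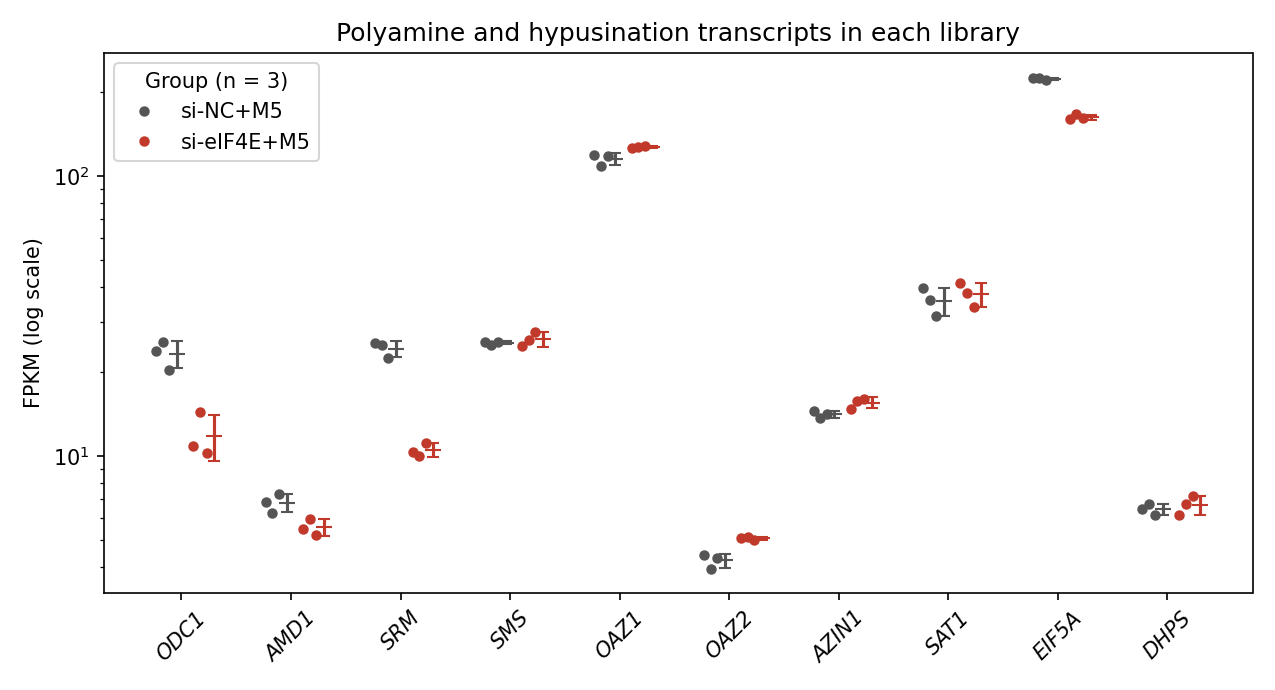
Level of each member in every library, in FPKM (fragments scaled by the authors for a gene length and library total) on a log axis. Points are the 3 libraries of a group and bars the mean with its SD. The lengths used were not given in the sources used here, so the order of different genes holds only on that scale. The knockdown points of ODC1, SRM, AMD1 and EIF5A lie below all control points and those of OAZ1, OAZ2 and AZIN1 above. The points of SMS, SAT1 and DHPS overlap.

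The promoters of the 2 most strongly lowered members were compared with that of EIF5A, which fell less, because ODC1 is a textbook target of MYC and MYC with its partner MAX binds the palindrome CACGTG. MYC itself fell from 437 ± 32.3 to 249.9 ± 13.96 CPM (log2 fold change -0.81 ± 0.07, adjusted p = 1.6e-04 in edgeR). Whether MYC had a part in the change of any member was not tested. RefSeq windows of 300 bases, from 250 before to 50 after an annotated start in GRCh38.p14, were matched by symbol for 9 members, AZIN1 being the other, with 17 windows in all. CACGTG, which reads alike on both strands, was found in windows of 2 members, ODC1 and SRM, and in none of AMD1, EIF5A, OAZ1, OAZ2, SMS, SAT1 or DHPS. Of all 27305 genes with a window 8.77% hold it, and of all 35116 windows 7.26%. In the window of the downstream ODC1 start (minus strand, chr2:10447963-10448262) it occurs at 2 places, beginning 29 bases before and 5 bases after the start, and the window of the upstream ODC1 start does not hold it. In the SRM window (minus strand, chr1:11059969-11060268) it begins 199 bases before the start. The EIF5A window of the first listed start (plus strand, chr17:7306749-7307048) has none. Capitals mark CACGTG, and a match describes the letters and does not show that a factor binds there.
ODC1: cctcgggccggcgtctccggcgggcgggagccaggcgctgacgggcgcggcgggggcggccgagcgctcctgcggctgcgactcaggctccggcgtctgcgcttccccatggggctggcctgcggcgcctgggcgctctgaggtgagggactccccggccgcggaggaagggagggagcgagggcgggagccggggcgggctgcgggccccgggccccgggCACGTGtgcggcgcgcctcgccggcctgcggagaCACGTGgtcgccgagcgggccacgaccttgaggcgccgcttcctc
SRM: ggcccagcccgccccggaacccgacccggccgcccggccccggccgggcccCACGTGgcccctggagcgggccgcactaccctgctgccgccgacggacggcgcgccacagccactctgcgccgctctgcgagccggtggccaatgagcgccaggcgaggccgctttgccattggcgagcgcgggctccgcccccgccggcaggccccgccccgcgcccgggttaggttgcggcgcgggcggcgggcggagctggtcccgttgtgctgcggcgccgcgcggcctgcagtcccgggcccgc
EIF5A: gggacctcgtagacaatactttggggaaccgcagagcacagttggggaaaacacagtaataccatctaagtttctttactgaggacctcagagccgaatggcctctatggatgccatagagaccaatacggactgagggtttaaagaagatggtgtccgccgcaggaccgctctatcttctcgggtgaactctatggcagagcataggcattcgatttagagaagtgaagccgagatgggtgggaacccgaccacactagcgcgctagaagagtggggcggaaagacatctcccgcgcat

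Among the wider pathway genes listed below, 5 of 20 with a window hold CACGTG. These are EIF5A2 and ENOPH1, which fell, and DOHH, MRI1 and ADI1, which did not pass. Whether the letters go with a change was not tested. GC content was 80.7% in the ODC1 window shown, 82.0% in that of SRM and 52.3% in that of EIF5A. It ranged from 52.0 to 78.0% over the EIF5A windows, and was 61.7% in the DOHH window that holds the motif and 79.0% in the ODC1 window that does not.

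Antizymes bind ornithine decarboxylase, carry it to the proteasome without ubiquitin and hold back polyamine uptake. Their full-length protein is made only when ribosomes shift frame at the stop codon of a short first reading frame, which polyamines promote. OAZ1 (ENSG00000104904, plus strand, chr19:2269509-2273490) was the more abundant of the pair, at 425.7, 397.5 and 430.4 CPM in control libraries and 438.3, 460.8 and 462.3 CPM in knockdown libraries. All knockdown values lay above all control values, by a margin of less than the spread of the control group. OAZ1 did not pass, at a log2 fold change of 0.12 ± 0.06 (adjusted p = 0.19 in edgeR, 95% interval -0.01 to 0.24). Its exons share 236 bases with JSRP1 on the opposite strand, which has 1597 counts over the 6 libraries against 190151, and 220 bases with AC005258.1 on the same strand, for which no count was used here. OAZ2 (ENSG00000180304, minus strand, chr15:64687573-64703281) held 35.5, 32.5 and 35.3 CPM against 39.7, 41.4 and 40.3 CPM. Here too the groups did not overlap, and the knockdown libraries had a coefficient of variation of only 2.22%. Its rise, a log2 fold change of 0.23 ± 0.07, passed with an adjusted p of 0.038 in edgeR and was lost in 10 of 14 other settings, including each of the 6 fits without 1 library (adjusted p from 0.062 to 0.155).

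The capitalized frameshift site is the same in both antizyme mRNAs, within 30 bases that are not identical, and is shown because it is the step at which antizyme output is known to be set and which transcript counts do not read. Capitals mark the last sense codon, the stop codon of the first frame and the base after it, from the GENCODE transcripts. In 2 annotated OAZ1 transcripts the coding sequence leaves out the single base at chr19:2271443, which joins the frames.
OAZ1: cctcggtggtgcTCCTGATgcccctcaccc
OAZ2: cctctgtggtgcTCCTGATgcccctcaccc

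AZIN1 encodes antizyme inhibitor, an inactive relative of ornithine decarboxylase that binds antizyme in its place. Its level was 89.7, 86.4 and 88.9 CPM in control libraries and 88.5, 98.5 and 99.6 CPM in knockdown libraries, so si-eIF4E+M5 replicate 1 lay among the controls and the rest above them. In FPKM the groups did not overlap, with 13.6 to 14.5 in control libraries and 14.8 to 16.0 in knockdown libraries. The log2 fold change was 0.11 ± 0.06 (adjusted p = 0.28 in edgeR, 95% interval -0.03 to 0.25). SAT1 encodes spermidine/spermine acetyltransferase, the induced enzyme of polyamine breakdown and export (ENSG00000130066, plus strand, chrX:23783173-23786226). It held 104.3, 95.9 and 84.1 CPM against 104.4, 100.1 and 89.2 CPM, an almost complete overlap (log2 fold change 0.05 ± 0.09, adjusted p = 0.79 in edgeR, 95% interval -0.15 to 0.24).

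EIF5A was the most abundant member (ENSG00000132507, plus strand, chr17:7306999-7312463). Control libraries held 626.6, 642.8 and 625.6 CPM and knockdown libraries 432.8, 469.4 and 453.7 CPM. The groups were far apart for their spread, with coefficients of variation of 1.53% and 4.06%. The log2 fold change was -0.48 ± 0.05 (adjusted p = 4.9e-04 in edgeR), or 71.55% of control with an interval from 65.9 to 77.7%. DHPS, encoding deoxyhypusine synthase, which transfers the aminobutyl group from spermidine to eIF5A (ENSG00000095059, minus strand, chr19:12675717-12681880), held 20.4, 21.7 and 19.7 CPM against 18.7, 21.3 and 22.6 CPM. The groups overlapped, with a log2 fold change of 0.02 ± 0.09 (adjusted p = 0.93 in edgeR, 95% interval -0.19 to 0.23). Reads of DHPS are hard to assign, since 1157 of its exon bases are shared on the same strand with the locus ENSG00000285589, which has 34779 counts over the 6 libraries against 9022 of DHPS, and whether counting used strand is not given in the sources used here. Exons of EIF5A share 241 bases with GPS2 on the opposite strand, and GPS2 has 26822 counts against 235472.

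Copies of EIF5A elsewhere in the genome are close enough in sequence that reads could be assigned to either, which was not measured. The retrogene EIF5AL1 on chromosome 10 is identical to EIF5A at 460 of 465 coding bases and the pseudogene EIF5AP4 at 458 of 465, and they hold 1.94% and 1.49% of the counts summed over the 3 genes. Both fell, by log2 fold changes of -0.43 ± 0.13 (adjusted p = 0.047 in edgeR) and -0.61 ± 0.14 (adjusted p = 0.016). With the counts of the 3 summed into 1 gene, a setting chosen after seeing the data, the log2 fold change of EIF5A was -0.48 ± 0.05. EIF5A itself holds 96.58% of these counts, so the sum could hardly differ from EIF5A alone. It does not show whether reads were misassigned. EIF5A2 on chromosome 3, a separate paralog that is 72.1% identical in the aligned coding bases, fell from 7.08, 6.92 and 6.84 CPM to 3.51, 3.78 and 4.26 CPM (-0.85 ± 0.14, adjusted p = 0.0034 in edgeR; -0.39 with limma on log2(FPKM + 1), a scale that shrinks low genes). The codon of the modified lysine is codon 50 in all 3 coding sequences. It is shown in capitals because this residue is what ties eIF5A to spermidine, and the stretch is letter for letter the same in EIF5A and EIF5AL1.
EIF5A: tcgaagactggcAAGcacggccacgccaag
EIF5AL1: tcgaagactggcAAGcacggccacgccaag
EIF5A2: tccaaaactggaAAGcatggtcatgccaag

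In FPKM, for which the gene lengths used were not given, EIF5A and OAZ1 stood above the other members in both groups. They held 222 ± 2.42 and 115 ± 5.73 FPKM in control libraries and 162 ± 3.47 and 127 ± 1.06 FPKM in knockdown libraries. In control libraries SAT1 followed at 35.8 FPKM. SMS, SRM and ODC1 formed a group at 25.4, 24.2 and 23.2 FPKM whose neighbouring ranges overlapped, and AZIN1, AMD1, DHPS and OAZ2 came last at 14.1, 6.82, 6.47 and 4.24 FPKM, with overlap between AMD1 and DHPS. In knockdown libraries SMS was at 26.1 FPKM, while ODC1 and SRM were at 11.8 and 10.5 FPKM with overlapping ranges, below AZIN1 at 15.5 FPKM. SMS, SRM and ODC1, level on this scale in control libraries, were thus no longer level on it. AMD1 at 5.56 FPKM lay below DHPS at 6.69 FPKM, whose reads are hard to assign. This order depends on the lengths used. In CPM, which does not divide by length, the control means were 73.6 for AMD1, 68.4 for ODC1, 54.5 for SMS, 48.5 for SRM and 20.6 for DHPS.

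Ratios between members within a library do not depend on scaling between libraries, and 5 were formed from FPKM values. The size of each ratio depends on the gene lengths that the authors used, which hardly enter the difference between groups. The ratio of ODC1 to OAZ1, enzyme over antizyme, was 0.1998, 0.235 and 0.172 in control replicates and 0.0862, 0.112 and 0.0797 in knockdown replicates. It was lower in all 3 knockdown libraries, by 1.13 on the log2 scale (means -2.32 ± 0.22 and -3.45 ± 0.26). A two-sided exact permutation test gave p = 0.1, which is the smallest value that 3 against 3 libraries allow, and which is not below 0.05. The ratios of ODC1 to SAT1 and of SRM to SMS also separated the groups, with differences of -1.06 and -1.24 and the same exact p of 0.1 each. SRM was about level with SMS in control libraries, at 0.987, 0.994 and 0.875, and clearly below it in knockdown libraries, at 0.418, 0.387 and 0.402.

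The ratio of EIF5A to DHPS, substrate over modifying enzyme, went from 34.4 ± 1.18 to 24.4 ± 1.79 (log2 difference -0.50, exact permutation p = 0.1). Because reads of DHPS are hard to assign, the size of this ratio is uncertain. The ratio of AZIN1 to OAZ1 was 0.122, 0.126 and 0.1197 in control libraries and 0.117, 0.124 and 0.125 in knockdown libraries. The groups overlapped, with a log2 difference of -0.01 and an exact permutation p of 0.8. Adjusted over the 5 ratios by Benjamini-Hochberg, the exact p-values are 0.125 for the 4 that separated and 0.8 for AZIN1 to OAZ1. Each of these 4 sets a member that was called lower over a member that was not called. They therefore restate the single-gene results and add no separate evidence. How often other pairs of genes separate was not tested.

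**Figure D3:**
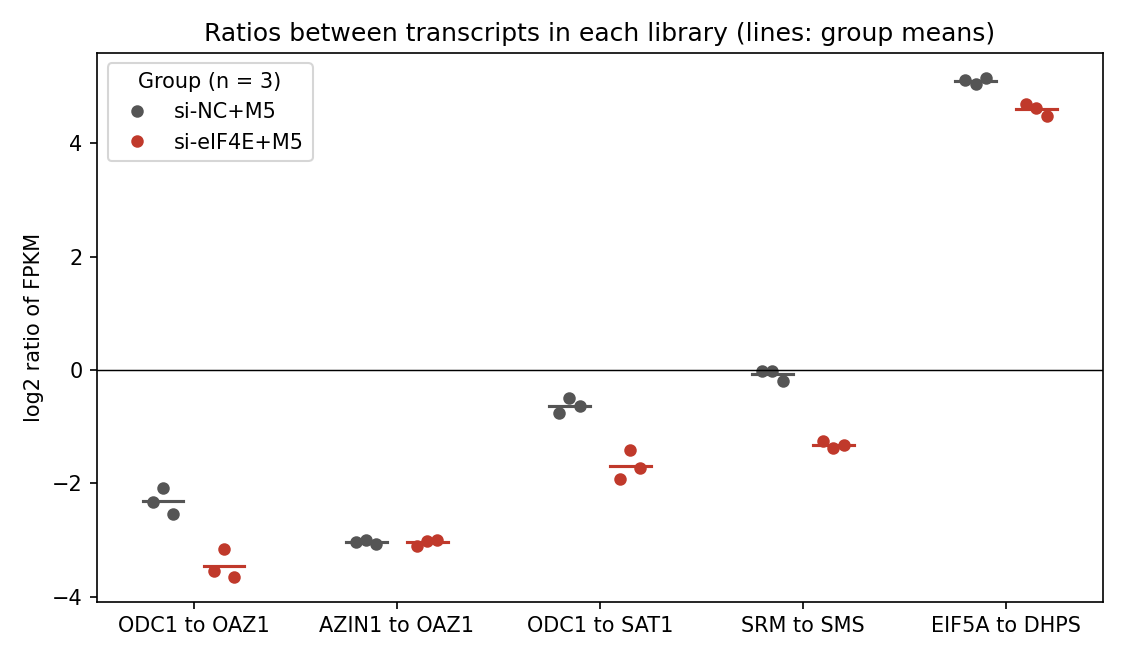
Log2 ratio of FPKM between pairs of members in each library, with a line at each group mean. The pairs ODC1 to OAZ1, ODC1 to SAT1, SRM to SMS and EIF5A to DHPS lie lower in all 3 knockdown libraries, and the groups overlap for AZIN1 to OAZ1.

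Outside the 10 members, 23 further genes of polyamine supply, breakdown, transport and hypusination were listed, of which 20 were tested. Of these, 7 fell and 1 rose, where 8.40% of all tested genes fell and 7.44% rose, and their median log2 fold change was -0.10 against -0.01 over all tested genes. This list too was chosen with earlier results of these data known, so the shares describe it and do not test it. ARG1, AGMAT and ATP13A4 had too few counts, at most 12 in any library. In hypusination EIF5A2 and EIF5AL1 fell, while DOHH, encoding the hydroxylase that completes hypusine, stood at 19.8 ± 1.68 against 18.7 ± 0.22 CPM (adjusted p = 0.60 in edgeR). In the supply of ornithine the mitochondrial arginase gene ARG2 fell from 6.29 ± 0.39 to 3.70 ± 0.93 CPM (log2 fold change -0.76 ± 0.19, adjusted p = 0.022 in edgeR). OAT, encoding ornithine aminotransferase, which links ornithine to glutamate and proline, was the gene that rose, from 225 ± 14.5 to 284 ± 16.1 CPM (0.33 ± 0.07, adjusted p = 0.0086 in edgeR).

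S-adenosylmethionine supplies the aminopropyl groups. MAT2A, its synthase outside liver, fell from 323 ± 15.7 to 271 ± 18.4 CPM (-0.25 ± 0.07, adjusted p = 0.028 in edgeR), and MAT2B, the regulatory subunit, did not pass, with a log2 fold change of 0.18 ± 0.06 (adjusted p = 0.088), and was called higher with DESeq2, where a mean FPKM of 5 was required, and without si-NC+M5 replicate 3. The by-product of both synthases, methylthioadenosine, is recycled by the methionine salvage pathway, whose first enzyme MTAP fell from 62.5 ± 3.14 to 41.4 ± 2.43 CPM (-0.59 ± 0.07, adjusted p = 5.8e-04 in edgeR). ENOPH1, a later salvage enzyme, fell by 0.26 on the log2 scale, and MRI1, APIP and ADI1 had values between -0.07 and 0.07 that did not pass. ADI1 was the best expressed of these 3 in CPM, at 90.3 ± 10.2 against 94.5 ± 2.30.

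No gene of breakdown passed, and 1 transporter gene fell. The oxidases SMOX (-0.25 ± 0.12, adjusted p = 0.20 in edgeR) and PAOX (0.42 ± 0.37, adjusted p = 0.52) and the second acetyltransferase SAT2 (0.02 ± 0.10) did not pass. ATP13A3, a transporter of the P5B family that moves polyamines out of endosomes, fell from 205 ± 3.75 to 152 ± 6.33 CPM (-0.43 ± 0.06, adjusted p = 0.0010 in edgeR), and its lysosomal relative ATP13A2 stood at 99.6 ± 8.56 against 102.9 ± 2.65 CPM. The vesicular transporter SLC18B1 did not pass. AZIN2, the second antizyme inhibitor, missed the threshold at 10.3 ± 0.92 against 13.3 ± 1.20 CPM (0.38 ± 0.12, adjusted p = 0.054 in edgeR). It was called higher with median ratio size factors, with DESeq2, with a robust spread estimate and with a replicate block. OAZ3, a testis antizyme, was near 1 CPM in every library. Of the 8 called genes, EIF5A2, MTAP, ATP13A3 and OAT were called in each alternative that tested them. EIF5AL1 lost its call in 10 of 14 settings, MAT2A in 9 of 15, ARG2 in 7 of 14 and ENOPH1 in 4 of 15. For ARG2 these include each fit without 1 library other than si-eIF4E+M5 replicate 3 (adjusted p from 0.054 to 0.084).

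**Figure D4:**
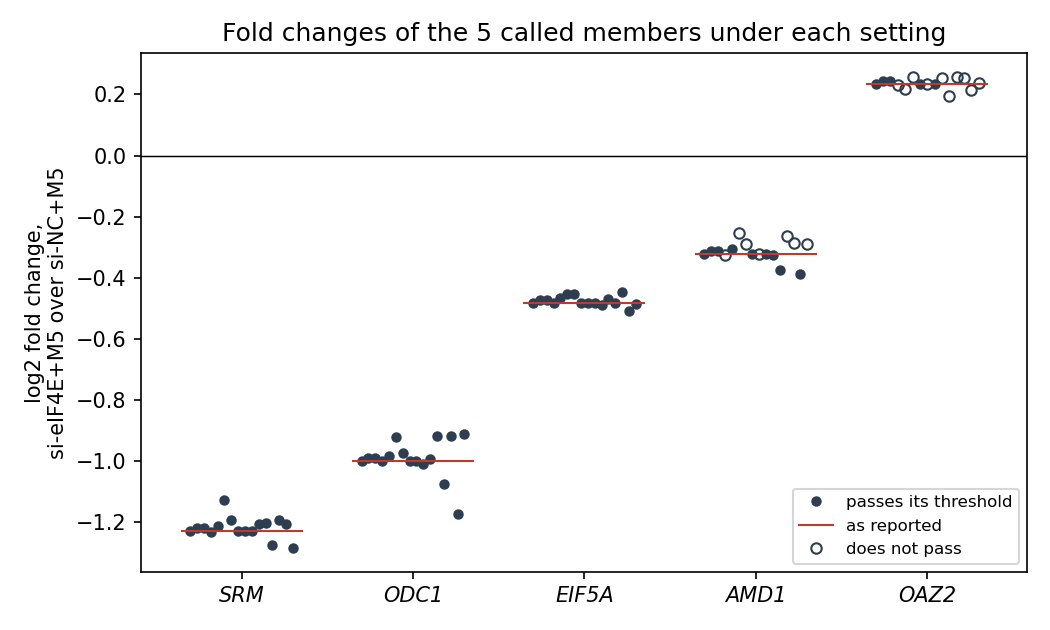
Log2 fold changes of the 5 called members under the reported test (red line) and the 15 other settings, with filled points where the gene passes that setting's threshold and open points where it does not; OAZ2 was not tested where a mean FPKM of 5 was required. SRM, ODC1 and EIF5A are filled throughout, and AMD1 and OAZ2 hold both kinds of point on 1 side of 0.

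Under all 15 alternatives SRM kept a log2 fold change between -1.29 and -1.13, ODC1 between -1.17 and -0.91 and EIF5A between -0.51 and -0.45, with the largest adjusted p at 0.0024, 0.016 and 0.0054. Across the 6 libraries the profile of ODC1 in log2 CPM was most like that of YARS1, a tyrosyl-tRNA synthetase (Pearson r = 0.998 over 6 libraries, the highest of 6771 genes whose mean FPKM reached 5). RAE1, ANXA2, MRPL3 and PLAUR followed at r between 0.996 and 0.997. The 6 libraries form 2 groups, so r is high for any gene with a steady difference between them, and no test was attached. The fold changes of these 5 genes were smaller than that of ODC1, between -0.67 and -0.22 on the log2 scale.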

How the data were processed

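Total RNA of 6 HaCaT samples was sequenced. The submitters' processing notes name cutadapt 1.9, FastQC and the build GRCh38. Which aligner, counter, annotation and strand setting were used was not given in the sources used here. Raw counts per gene make up the deposited table, with FPKM values that the authors computed beside them. Counts divided by FPKM and by library total were constant within 1% in 99.95% of 9940 well counted genes. No libraries were duplicates: between replicates chi-squared was 23.1 to 27.8 times its degrees of freedom.

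The count test was that of edgeR 4.0.16 under R 4.3.3 (filterByExpr at a minimum of 10 counts, 18022 genes kept, TMM, two-sided quasi-likelihood test, Benjamini-Hochberg over all tested genes, threshold 0.05), a test also tried on simulated data. Fold changes put knockdown over control, ± SE. Totals of 71044961 to 74246501 counts make counting error small beside replicate spread, whose common biological coefficient of variation was 17.4%. Alternatives used DESeq2 1.42.0, limma 3.58.1 on log2(FPKM + 1) and log2(FPKM + 0.1), other filters, scaling and thresholds, a replicate block, and the omission of each library in turn. Ratios were tested with scipy 1.17.1 and figures drawn with matplotlib 3.10.9. Sequences are from RefSeq windows (GRCh38.p14) and GENCODE 29, compared with biopython 1.88. Gene coordinates are those of the deposited table.

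Members and gene lists were chosen with earlier results of these data known. Named were all members, the called genes of the wider pathway with the best expressed gene of each role, EIF4E, MYC and the 5 genes most like ODC1. Other wider pathway genes, marker genes, overlapping genes and the copies of EIF5A are named for completeness, chosen after their values were seen.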

Additional observations from a re-analysis of the deposited data

How the results depend on the processing

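Across 15 alternatives 3 to 4 members were called lower, and SRM, ODC1 and EIF5A were called in each. The count of members called higher, 1 as reported and 1 with DESeq2, was 0 with edgeR without a filter on low counts, with edgeR where a mean FPKM of 5 was required, with limma on either FPKM scale, and with edgeR at an adjusted p under 0.01. At an unadjusted p under 0.05 that count was 2, 2, 3 on both limma scales, and 1. OAZ2 was not tested where a mean FPKM of 5 was required. At the threshold of 0.01 the fit was the reported one, and its adjusted p of 0.038 in edgeR lay above that threshold. Its adjusted p was 0.063 in edgeR without a filter, and 0.057 and 0.051 with limma on log2(FPKM + 1) and log2(FPKM + 0.1). What moved it in these 3 was not tested. Wider pathway genes called higher, 1 as reported, numbered 2 with median ratio size factors, with the FPKM requirement, with a robust spread estimate and with the block, and 3 with DESeq2. Those called lower, 7 as reported, numbered 4 without a filter, and 3 both with the FPKM requirement and at an adjusted p under 0.01. With the FPKM requirement EIF5A2, EIF5AL1, ARG2 and MTAP were not tested, and ATP13A3, ENOPH1 and MAT2A kept their calls. Over all genes 1340 were called higher and 1513 lower, against 801 higher without a filter and 573 higher and 727 lower at an adjusted p under 0.01.

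With 1 library left out, all genes called higher ranged from 724 to 1168 and lower from 874 to 1191, both lowest without si-NC+M5 replicate 2. Higher calls also fell by over 1.5 times without si-eIF4E+M5 replicate 2 (889) or 3 (848), and lower calls without si-eIF4E+M5 replicate 1 (1001). Members called higher were 0 in each of these edgeR fits (1 to 3 at an unadjusted p under 0.05) and called lower 3 to 4. Wider pathway genes called higher were 1 to 2. Those called lower were 3 to 5, with 3 when si-NC+M5 replicate 2 was omitted, 5 when si-eIF4E+M5 replicate 2 was omitted and 4 otherwise.

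Members that were not called could change sign in these fits. The log2 fold change ranged from -0.0444 to 0.075 for SMS (negative without si-eIF4E+M5 replicate 3), from -0.0256 to 0.1208 for SAT1 (negative without si-NC+M5 replicate 3) and from -0.0431 to 0.0999 for DHPS (negative in either fit, at -0.0049 without the control library). The log2 difference of AZIN1 to OAZ1 ranged from -0.0264 to 0.0205. It was positive if si-NC+M5 replicate 2 (0.0108) or si-eIF4E+M5 replicate 1 was left out.

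Replicate numbers are shared by the groups, and deviations of same-numbered libraries correlated at 0.0979, 0.067 and 0.154. Differently numbered libraries were not compared, so pairing was not settled, and the reported test took none. On the second principal component of log2 CPM, replicate 1 stood highest in both groups, at 15.8 in control and 20.9 in knockdown. The other libraries lay between -13.9 and -3.52. With the replicate number as a block, 4 members were called lower and 1 higher, as without it, and among wider pathway genes AZIN2 was added as higher and SMOX as lower. Over all genes 1586 were then called higher and 1828 lower, against 1340 and 1513. The SE of ODC1 was 0.071 against 0.13, and that of SRM 0.081 against 0.078.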
